A study of Mus musculus with 4 samples.

Results

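The desmosomal cadherin genes Dsc1, Dsc2, Dsc3, Dsg1a, Dsg2, Dsg3 and Dsg4 were examined in ChIP-seq libraries of mouse embryonic stem (mES) cells. These 7 genes were taken by name from the GENCODE annotation of the mm9 genome, out of 22359 protein-coding genes with a transcription start site (TSS) each, by a list of names that uses no measured value, although the list was drawn up with earlier results of these data known. The series holds 4 libraries. Chromatin was immunoprecipitated with a rabbit polyclonal antibody against H3K9ac (ab4441), with the mouse monoclonal antibody 13HH3 against H3K14ac, or with the mouse monoclonal antibody 7G8 against H3K14ac, and input DNA without antibody served as the control. The cells of every library carry the labels E14 and 129P2/OlaHsd and received no treatment, whereas according to the methods they came from wild type blastocysts and were grown on feeder cells, then passaged without them. There is 1 library per antibody, so there is no replicate, no p-value was computed, and intervals of 95% cover counting error only. All ratios therefore compare libraries and not conditions. After removal of repeated positions the libraries held 23181544 tags for H3K9ac, 21626227 for 13HH3, 23837354 for 7G8 and 19313142 for input.

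Desmosomes are junctions that hold neighbouring cells together and anchor their keratin filaments. Desmogleins (Dsg) and desmocollins (Dsc) are the transmembrane cadherins whose outer parts meet between the cells, while their tails bind plakoglobin and plakophilins, and desmoplakin joins this plaque to keratin. Dsg2 and Dsc2 are the widely used pair, known from simple epithelia and heart muscle, whereas Dsg1, Dsg3, Dsc1 and Dsc3 are known from stratified epithelia such as the epidermis, and Dsg4 from the hair follicle. Acetylation of histone H3 at lysines 9 and 14 is a mark of active promoters and enhancers.

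The genes form a cluster on chromosome 18 of mm9, taken here from 10 kb before the first to 10 kb past the last gene (20109431 to 20773022, 663592 bp). Dsc3, Dsc2 and Dsc1 lie on the minus strand, with TSSs at 20160598, 20218055 and 20273274. They are followed on the plus strand by Dsg1c, Dsg1a (TSS at 20469312), Dsg1b, Dsg4 (20594676), Dsg3 (20668805) and Dsg2 (20716575). Dsg1b and Dsg1c are close copies of Dsg1a and were counted beside the members. A stretch of 36 bases, the length of a read, was unique in the genome at 70.6% of the positions within 2 kb of the Dsg1a TSS, at 77.6% for Dsg1b and at 75.2% for Dsg1c, but at 95.6% or more for the other 6 members. Levels at the Dsg1 copies are therefore uncertain, and their part in the results below was not tested. Tags were counted within 2 kb on each side of a TSS, so that every gene has a window of the same length, and are given as tags per 10000000 tags of the library.

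Dsg2 stood apart from the other members in H3K9ac. Its window held 239 H3K9ac tags, 96 tags of 13HH3, 108 tags of 7G8 and 32 input tags. These are densities of 103 tags per 10000000 for H3K9ac (interval 90.4 to 117), 44.4 for 13HH3, 45.3 for 7G8 (37.2 to 54.7) and 16.6 for input (11.3 to 23.4). All 3 antibodies were above input by more than counting error, and both H3K14ac antibodies gave nearly the same density. The log2 ratio to input was 2.64 for H3K9ac (2.10 to 3.22), 1.42 for 13HH3 (0.83 to 2.05) and 1.45 for 7G8 (0.87 to 2.07). Among all TSSs these ratios stood at the 86.1, 93.8 and 94.3 percentile.

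Dsc2, the partner of Dsg2 in simple epithelia, held 82 H3K9ac tags, 64 of 13HH3, 60 of 7G8 and 29 of input. Its H3K9ac density of 35.4 per 10000000 (28.1 to 43.9) was above that of input (15.0, interval 10.1 to 21.6), and lower than that of Dsg2. The log2 ratio to input was 1.24 for H3K9ac (0.61 to 1.90), 0.98 for 13HH3 (0.32 to 1.66) and 0.75 for 7G8 (0.08 to 1.44), so each interval lay above 0. The 7G8 interval took in 0 with tags scaled by the totals of chromosome 18 (0.56, interval -0.11 to 1.25), left unshifted (0.58, interval -0.08 to 1.26), within 1 kb (0.21, interval -0.64 to 1.09), within 500 bp (0.70, interval -0.83 to 2.40) and in the 2 kb upstream of the TSS alone (0.17, interval -0.94 to 1.32). That of 13HH3 took in 0 upstream (-0.06, interval -1.25 to 1.15) and within 500 bp (1.25, interval -0.18 to 2.89). A protein-coding transcript of Dsc2 that starts 21415 bp further into the gene had no such excess, with 24 H3K9ac tags against 29 of input and a log2 ratio of -0.54 (-1.38 to 0.29). For 13HH3 the log2 ratio there was -0.63 (-1.51 to 0.23).

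Dsc3, a desmocollin of basal epidermal layers, held 73 H3K9ac tags, 78 of 13HH3, 62 of 7G8 and 39 of input. The H3K9ac and 13HH3 densities of 31.5 (24.7 to 39.6) and 36.1 per 10000000 (28.5 to 45.0) were close to each other, unlike at Dsg2. The log2 ratio to input was 0.64 for H3K9ac (0.06 to 1.24), 0.84 for 13HH3 (0.26 to 1.43) and 0.37 for 7G8 (-0.24 to 0.98). The tags lay close to the TSS. Within 500 bp on each side, a window chosen after the profiles were seen, Dsc3 held 50 H3K9ac tags, 49 of 13HH3 and 31 of 7G8 against 7 of input, and the log2 ratios became 2.57 (1.43 to 3.96), 2.64 (1.49 to 4.03) and 1.84 (0.63 to 3.27).

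Dsg3, the desmoglein of basal epidermis, had more tags of both H3K14ac antibodies than of H3K9ac. Its window held 39 H3K9ac tags, 71 of 13HH3, 66 of 7G8 and 29 of input. H3K9ac, at 16.8 per 10000000 (12.0 to 23.0), overlapped input at 15.0 (10.1 to 21.6), whereas 13HH3 reached 32.8 (25.6 to 41.4) and 7G8 27.7 (21.4 to 35.2). The log2 ratio to input was 0.16 for H3K9ac (-0.57 to 0.91), 1.13 for 13HH3 (0.49 to 1.80) and 0.88 for 7G8 (0.23 to 1.57), the last of which took in 0 within 1 kb (0.75, interval -0.25 to 1.83).

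Dsc1, a desmocollin of the upper epidermis which the study used as an inactive promoter, held 26 H3K9ac tags, 36 of 13HH3, 45 of 7G8 and 35 of input. H3K9ac at 11.2 per 10000000 (7.33 to 16.4) was the lowest of the 4 libraries there, and its log2 ratio to input of -0.69 (-1.48 to 0.08) stood at the 9.59 percentile of all TSSs. For 13HH3 and 7G8 the log2 ratios were -0.12 (-0.83 to 0.59) and 0.06 (-0.61 to 0.74), so that no antibody differed from input beyond counting error. The amplicon of the study in the Dsc1 intron (20272918 to 20273064, 147 bp) lies 283 bp downstream of the TSS, and the 1000 bp around it held 11, 21, 21 and 16 tags in the same order of libraries. With this amplicon the study followed both marks by ChIP-qPCR, relative to total H3, over a time course of sodium butyrate. It reported a rise of H3K14ac without one of H3K9ac, which the untreated libraries here do not measure.

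Dsg4 and Dsg1a were the remaining members. Dsg4, a desmoglein of the hair follicle, held 32 H3K9ac tags, 41 of 13HH3, 31 of 7G8 and 30 of input, and its log2 ratios to input of -0.17 (-0.94 to 0.60), 0.29 (-0.43 to 1.02) and -0.26 (-1.03 to 0.52) included 0. Within 500 bp 13HH3 at Dsg4 stood at 1.50 (0.12 to 3.11), while the intervals of H3K9ac and 7G8 still included 0. Dsg1a, a desmoglein of differentiated epidermis, held 20 H3K9ac tags, 37 of 13HH3, 33 of 7G8 and 18 of input. Over input it stood at -0.11 for H3K9ac (-1.10 to 0.89), at 0.88 for 13HH3 (0.03 to 1.78) and at 0.57 for 7G8 (-0.30 to 1.49). The 13HH3 interval took in 0 with scaling by chromosome 18 (0.70, interval -0.15 to 1.60), with every deposited tag (0.83, interval -0.02 to 1.73), with no shift (0.76, interval -0.08 to 1.64), within 1 kb (interval -0.13 to 2.70) and upstream (0.84, interval -0.27 to 2.03). The copies of Dsg1a had fewer H3K9ac tags than input tags, with 24 against 30 at Dsg1b (log2 -0.59, interval -1.42 to 0.24) and 16 against 26 at Dsg1c (log2 -0.96, interval -1.96 to -0.01).

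**Figure D1:**
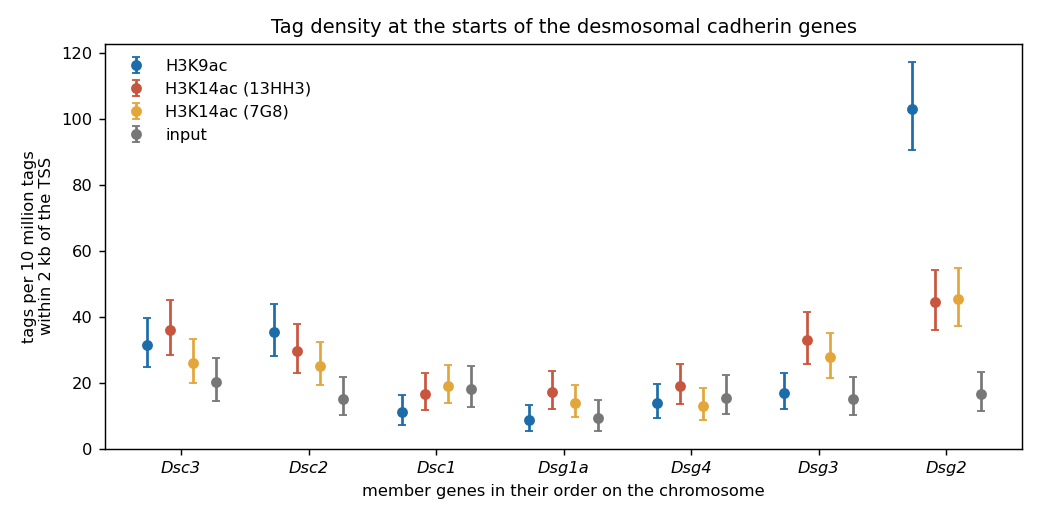
Tags per 10000000 tags of the library within 2 kb of the TSS (vertical axis) for the 7 members in their order on the chromosome, with points for each of the 4 libraries and bars for the exact 95% interval of counting. H3K9ac at Dsg2 reaches 103 per 10000000, while at Dsc1 the 4 libraries lie between 11.2 and 18.9.

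The order of the members differed between the libraries. In H3K9ac it was Dsg2, Dsc2, Dsc3, Dsg3, Dsg4, Dsc1 and Dsg1a, with 239, 82, 73, 39, 32, 26 and 20 tags. Dsg2 exceeded Dsc2 by 1.54 on the log2 scale (1.18 to 1.92), and Dsc3 exceeded Dsg3 by 0.90 (0.32 to 1.50), whereas the other neighbours in this order did not differ beyond counting error. In 13HH3 the order was Dsg2, Dsc3, Dsg3, Dsc2, Dsg4, Dsg1a and Dsc1, with 96, 78, 71, 64, 41, 37 and 36 tags. Here only Dsc2 exceeded its next neighbour Dsg4 beyond counting error, by 0.64 (0.05 to 1.24). In 7G8 Dsg2 (108 tags) exceeded Dsg3 (66 tags) by 0.71 (0.26 to 1.17), and no other neighbours in the order were separated. In input the members ran from 39 tags at Dsc3 to 18 at Dsg1a, and no neighbours were separated.

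A gene was called higher or lower where the log2 ratio was at least 1 in size, which is 2-fold, and its interval left out 0. For H3K9ac over input 2 of 7 members were called higher (Dsc2 and Dsg2), where 56.2% of all TSSs tested were, and no member was called lower, against 4.41% of all TSSs. For 13HH3 over input 2 of 7 members were called higher (Dsg2 and Dsg3), against 16.0% of all TSSs, with none lower against 2.42%. For 7G8 over input 1 of 7 was called higher (Dsg2), against 16.4% of all TSSs, with none lower against 1.58%. The H3K9ac call of Dsc2 was lost from the start inside the gene given above and in the 2 kb upstream of the TSS alone (0.28, interval -0.81 to 1.42), where Dsc3 was called in its place (1.32, interval 0.39 to 2.35). With the median ratio to input over 10 kb bins of the genome as the scale (the median 10 kb bin), Dsc3 was called for H3K9ac as well (1.02, interval 0.44 to 1.62), as it was within 1 kb (1.12, interval 0.40 to 1.88). For 13HH3 the ratio of Dsg3 fell just short of 2-fold when tags were scaled by the totals of chromosome 18 (0.96, interval 0.31 to 1.63) or left unshifted (0.97, interval 0.34 to 1.63). Under 4 other settings 3 members were called, with Dsc3 added within 1 kb (1.07, interval 0.34 to 1.84) and in the 2 kb upstream (1.42, interval 0.49 to 2.45), and Dsc2 with every deposited tag (1.04, interval 0.39 to 1.72) and by the median 10 kb bin (1.07, interval 0.42 to 1.76). For 7G8 Dsg3 was called beside Dsg2 in the 2 kb upstream (1.46, interval 0.41 to 2.64). Within 500 bp Dsg3 (1.43, interval 0.06 to 3.04) and Dsc3 (1.84, interval 0.63 to 3.27) were. No share over all TSSs was counted under these other settings.

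Set beside all TSSs, the members had a lower median for H3K9ac and a higher one for 13HH3, while that of 7G8 depended on the genes counted. The median log2 ratio of the 7 members was 0.16 for H3K9ac, below the 1.30 of all TSSs. It was 0.88 for 13HH3 and 0.57 for 7G8, above the 0.35 of all TSSs in both cases. Both of these are the values of Dsg1a, whose level is uncertain. With Dsg1b and Dsg1c included, the medians were -0.11 for H3K9ac, 0.84 for 13HH3 and 0.37 for 7G8, the last close to that of all TSSs. Scaled by the totals of chromosome 18, Dsg1a stood at 0.70 for 13HH3 and 0.38 for 7G8. Chromosome 18 as a whole was shifted by 0.05 for H3K9ac, 0.17 for 13HH3 and 0.19 for 7G8. These medians are descriptions of 7 or 9 genes of a cluster and were not tested.

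**Figure D2:**
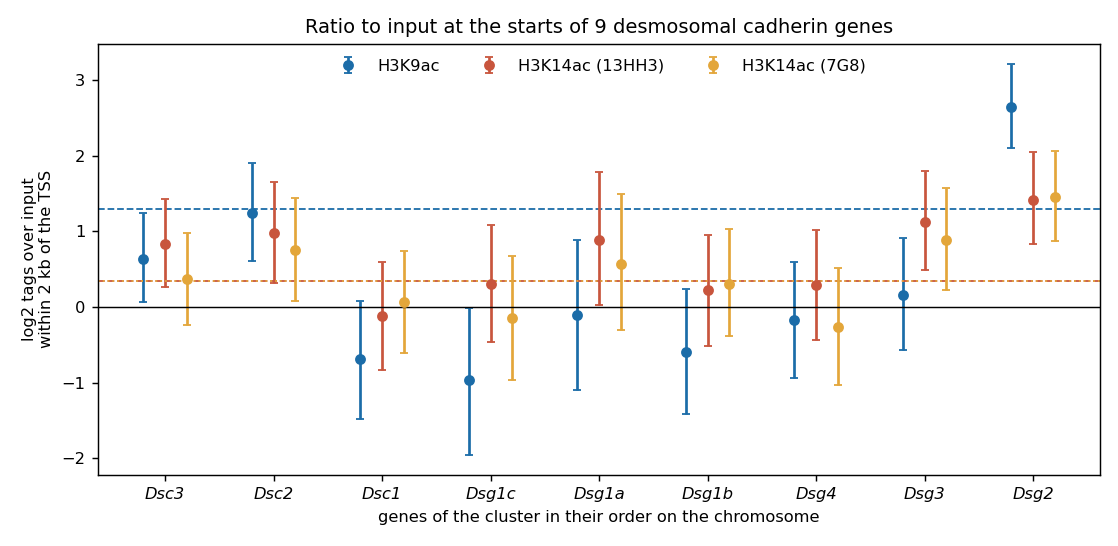
Log2 ratio of tags to input within 2 kb of the TSS (vertical axis) for the 7 members and the copies Dsg1b and Dsg1c in their order on the chromosome, with bars for the exact 95% interval. Dashed and dotted lines mark the medians of all TSSs, 1.30 for H3K9ac and 0.35 for both H3K14ac antibodies, and the H3K9ac point of Dsg2 at 2.64 lies above its line while those of Dsc1, Dsg1a, Dsg3 and Dsg4 lie near or below 0.

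H3K14ac was then compared with H3K9ac directly. At Dsg2 the log2 ratio of 13HH3 to H3K9ac was -1.22 (-1.57 to -0.87) and that of 7G8 to H3K9ac -1.19 (-1.53 to -0.85), so that 1 of 7 members was called lower in each comparison. None was in the 2 kb upstream of the TSS alone, where Dsg2 had -0.96 and -0.82. Dsc2 was called lower as well for 7G8 within 1 kb (-1.28, interval -1.95 to -0.65) and for 13HH3 within 500 bp (-1.15, interval -2.09 to -0.27). Of all TSSs 46.6% were called lower for 13HH3 and 51.9% for 7G8. No member was called higher, against 2.03% of all TSSs for 13HH3 and 3.99% for 7G8, although the copy Dsg1c reached 1.27 (0.38 to 2.22) for 13HH3. Under other settings Dsg1a was called for 13HH3 with no shift (1.02, interval 0.18 to 1.91) and Dsg4 within 500 bp (2.03, interval 0.56 to 3.80). Short of 2-fold, the interval lay above 0 for 13HH3 at Dsg3 (0.96, interval 0.38 to 1.57) and Dsg1a (0.99, interval 0.17 to 1.85). For 7G8 it lay above 0 at Dsc1 (0.75, interval 0.02 to 1.51) and Dsg3 (0.72, interval 0.13 to 1.33). These smaller differences depended on the scale and on the window. With the totals of chromosome 18 both 7G8 intervals took in 0, at 0.61 (-0.12 to 1.37) for Dsc1 and 0.58 (-0.01 to 1.19) for Dsg3. With the median 10 kb bin they were 0.34 (-0.38 to 1.10) and 0.31 (-0.28 to 0.92), the 13HH3 interval of Dsg1a took in 0 (0.71, interval -0.12 to 1.57), and that of Dsg3 stayed above it (0.68, interval 0.10 to 1.28). Within 1 kb the 7G8 values were 0.91 (-0.04 to 1.92) for Dsc1 and 0.13 (-0.72 to 0.99) for Dsg3, and 13HH3 at Dsg1a stood at 0.46 (-0.63 to 1.58). In the 2 kb upstream alone they were 0.43 (-0.50 to 1.39), 0.46 (-0.33 to 1.28) and 1.10 (-0.01 to 2.29). Within 500 bp all 3 intervals took in 0 as well, and with no shift that of 7G8 at Dsc1 did (0.72, interval -0.01 to 1.48). For 13HH3 at Dsg3 the interval lay above 0 in each of these windows and scales. At Dsc2 and Dsc3 the values were -0.26 (-0.75 to 0.23) and 0.20 (-0.28 to 0.68) for 13HH3. The median of the members was 0.46 for 13HH3 and -0.09 for 7G8, while the medians of all TSSs were -0.92 and -1.06. This was not particular to the members. Among the lists of genes described below, the 6 markers of stratified epithelium had medians of 0.42 and 0.12. The medians were -0.46 and -0.36 for the fibroblast markers, -0.89 and -1.18 for the partner genes, and -1.46 and -1.77 for the stem cell markers. These comparisons share the H3K9ac library.

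Within 2 kb of the TSS and by library totals, both H3K14ac antibodies gave values within counting error of each other at each member. The log2 ratio of 13HH3 to 7G8 ran from -0.18 at Dsc1 (-0.86 to 0.48) to 0.54 at Dsg4 (-0.16 to 1.27), and no member was called, where 1.03% of all TSSs were called higher and 2.24% lower. The intervals are wide, and at Dsg2, the member with most tags, the value was -0.03 (-0.44 to 0.38). Other settings separated them at 3 members. At Dsc3 13HH3 exceeded 7G8 by 0.60 with the median 10 kb bin as the scale (0.10 to 1.10), by 0.53 with every deposited tag (0.04 to 1.03) and by 0.80 within 500 bp (0.12 to 1.50). At Dsg3 it did so by 0.81 within 1 kb (0.08 to 1.56) and by 0.86 within 500 bp (0.02 to 1.74), and at Dsg4 by 1.58 within 500 bp (0.27 to 3.07).

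The shape of the signal around the TSS differed between the members. In bins of 500 bp, H3K9ac at Dsg2 reached 55 tags in the bin before the TSS and 62 in the bin after it, against 4 and 7 of input. It stayed at 24 to 45 tags up to 3 kb downstream, where input ran from 2 to 14 tags. The last of these bins held 27 H3K9ac tags against 14 of input. The 13HH3 and 7G8 tags of Dsg2 were spread over the same stretch, with a highest bin of 26 tags 2.25 kb downstream for 13HH3. At Dsc2 the H3K9ac tags lay in the first 1 kb downstream, with 29 and 30 tags in successive bins. At Dsc3 they lay on both sides of the TSS, with 28 and 22 tags. At Dsg3 13HH3 had 23 tags in the bin before the TSS, beside 15 of H3K9ac, 16 of 7G8 and 4 of input. Dsg4 had 13 tags of 13HH3 in the bin after its TSS, beside 2 of H3K9ac, 6 of 7G8 and 4 of input. At Dsc1 the corresponding bin held 13 tags of 13HH3, 10 of 7G8 and 3 of H3K9ac, but 11 of input as well.

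**Figure D3:**
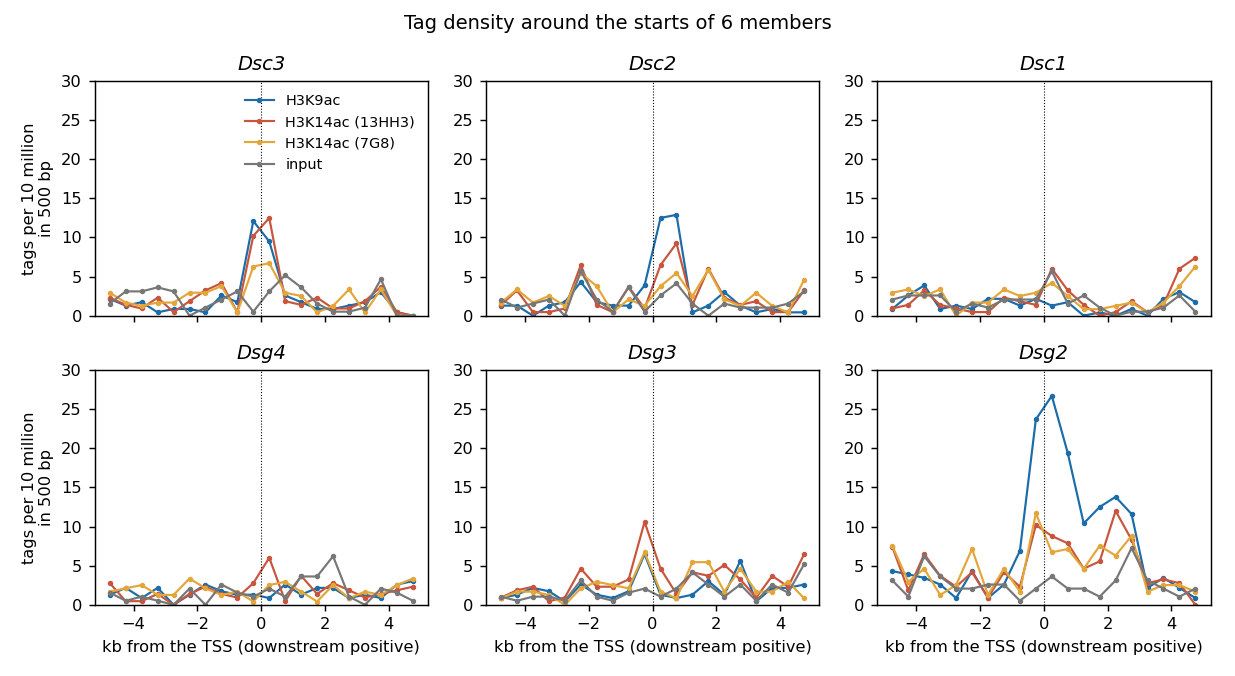
Tags per 10000000 in bins of 500 bp (vertical axis) from 5 kb upstream to 5 kb downstream of the TSS (horizontal axis, in kb, in the direction of transcription) for 6 members, with lines for the 4 libraries. Dsg2 has a broad H3K9ac domain with 55 and 62 tags beside its TSS, Dsc3 and Dsc2 have narrow ones, and Dsc1 and Dsg4 have none.

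Enriched regions were called in each ChIP library where a window of 400 bp held more tags than a Poisson rate set by input allows. The tags and ratios of that library inside its region are high by this choice, so they describe the region and do not test it. A region lay within 2 kb of the TSS at 4 of 7 members for H3K9ac (Dsc2, Dsc3, Dsg2 and Dsg3), at the same 4 for 13HH3, and at 3 for 7G8 (Dsc2, Dsc3 and Dsg2). The shares over all TSSs were 65.3%, 28.2% and 25.2%. At a stricter threshold fewer members kept a region of 13HH3 and none kept one of 7G8, as given below with the processing. At Dsg2 the H3K9ac region covered 3450 bp (20715851 to 20719300) with 274 H3K9ac tags against 35 of input. At Dsc3 the H3K9ac region (20160201 to 20161100) and the 13HH3 region (20160151 to 20161050) lay over each other at the TSS. At Dsc2 the H3K9ac and 13HH3 regions lay around 455 and 430 bp downstream of the TSS, but that of 7G8 around 1955 bp downstream, with 15 tags of 7G8 against 1 of input. At Dsg3 the 13HH3 region (20668351 to 20669100) held 31 tags of 13HH3 against 6 of input, and the H3K9ac region 15 tags of H3K9ac against 4 of input, with a log2 ratio of 1.64 (-0.01 to 3.69).

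Over the whole cluster there were 15 regions of H3K9ac, 16 of 13HH3 and 12 of 7G8. Per megabase this is 22.6, 24.1 and 18.1 regions, beside 30.1, 18.5 and 9.84 in the genome. The counts of 13HH3 and 7G8 depended strongly on the threshold, and that of 7G8 on the rate, as given below with the processing. Of the H3K9ac regions 11 of 15 (73.3%) overlapped a 13HH3 region, where 27.1% did in the genome, and of the 13HH3 regions 12 of 16 (75.0%) overlapped an H3K9ac region, where 47.3% did in the genome. For 7G8, 7 of 12 (58.3%) overlapped H3K9ac, beside 67.3% in the genome, and 7 of the 15 H3K9ac regions (46.7%) overlapped 7G8, beside 19.2%. Between the H3K14ac antibodies, 5 of 16 regions of 13HH3 (31.2%) overlapped 7G8, beside 21.2%, and 5 of 12 of 7G8 (41.7%) overlapped 13HH3, beside 40.8%. Most regions lay away from the TSSs of the family, namely 11 of H3K9ac, 12 of 13HH3 and 9 of 7G8.

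Several of these were shared between antibodies, and their tags and ratios are again high by the choice of regions. In the gap between Dsc1 and Dsg1c, which belong to opposite strands, an H3K9ac region at 20346451 to 20347550, about 58841 bp upstream of Dsg1c, held 57 H3K9ac tags against 10 of input (log2 2.25, interval 1.27 to 3.38). A smaller one at 20349301 to 20349750 held 20 H3K9ac tags, 19 of 13HH3, 28 of 7G8 and 7 of input. Both had regions of all 3 antibodies. An intron of Dsg4, 5674 bp past its TSS, held 21 H3K9ac tags, 25 of 13HH3, 16 of 7G8 and 4 of input at 20600051 to 20600650, although the Dsg4 TSS itself had no region. Upstream of Dsg3 an H3K9ac region at 20647701 to 20649200, 20355 bp before the TSS, held 71 H3K9ac tags, 50 of 13HH3, 30 of 7G8 and 13 of input, with regions of H3K9ac and 13HH3. In Dsg2 a region over a coding exon 43550 bp past the TSS, which is also an intron of the noncoding gene Gm16090, held 63 H3K9ac tags, 30 of 13HH3, 31 of 7G8 and 11 of input (20759601 to 20760650), with regions of H3K9ac and 7G8.

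Bins of 1 kb across the cluster were called by the same rule. For H3K9ac, 26 of 653 bins with a tag (3.98%) were called higher than input and 24 (3.68%) lower, beside 6.50% and 7.51% of all bins of the genome. For 13HH3, 43 of 654 bins (6.57%) were called higher and 4 (0.612%) lower, beside 4.36% and 4.25% of the genome. For 7G8, 40 of 654 bins (6.12%) were called higher and 13 (1.99%) lower, beside 3.44% and 3.77%. The 58 bins from 2 kb before Dsg2 onwards held 12 of the 26 H3K9ac bins, 9 of the 43 bins of 13HH3 and 6 of the 40 of 7G8. In 10 of 658 bins with a tag (1.52%) all 3 antibodies were called higher, beside 0.983% of the genome, and in 9 bins (1.37%) both H3K14ac antibodies were called without H3K9ac, beside 0.411%. These 9 bins held only 2 to 6 input tags each, shared by all 3 ratios. Their H3K9ac log2 ratios ran from 0.32 to 2.06, so the lack of a call does not mean a lack of H3K9ac. With the totals of chromosome 18 as the scale, 31 bins (4.74%) were called higher for 13HH3 and 23 bins (3.52%) for 7G8. The shares of the genome given above were counted by library totals, and none was counted on this scale, nor were the bins called for several antibodies.

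The bin with the most tags of H3K9ac and of 13HH3 was the same, at 20716431 to 20717430 over the Dsg2 TSS, with 109 and 46 tags against 12 of input. The next bins for H3K9ac, with 63 and 60 tags, also lay at Dsg2. For 13HH3 the next was at Dsg2, with 43 tags, followed by 2 bins of 35 tags each, at the Dsc3 TSS and between Dsc1 and Dsg1c (20386431 to 20387430), all of them called. For 7G8 the bins with most tags lay at Dsg2, with 37 and 32 tags, of which the second was called and the first, against 15 of input, was not. They were followed by 3 bins of 31 tags each. Of these, the bins at 20349431 to 20350430 between Dsc1 and Dsg1c (log2 1.07, interval 0.06 to 2.16) and at 20768431 to 20769430 past Dsg2 (1.48, interval 0.38 to 2.74) were called, and the bin 24332 bp upstream of Dsc3 (0.84, interval -0.11 to 1.87) was not. The highest input bin of the cluster held 19 tags. These top bins were ranked by the same tags that enter their calls.

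**Figure D4:**
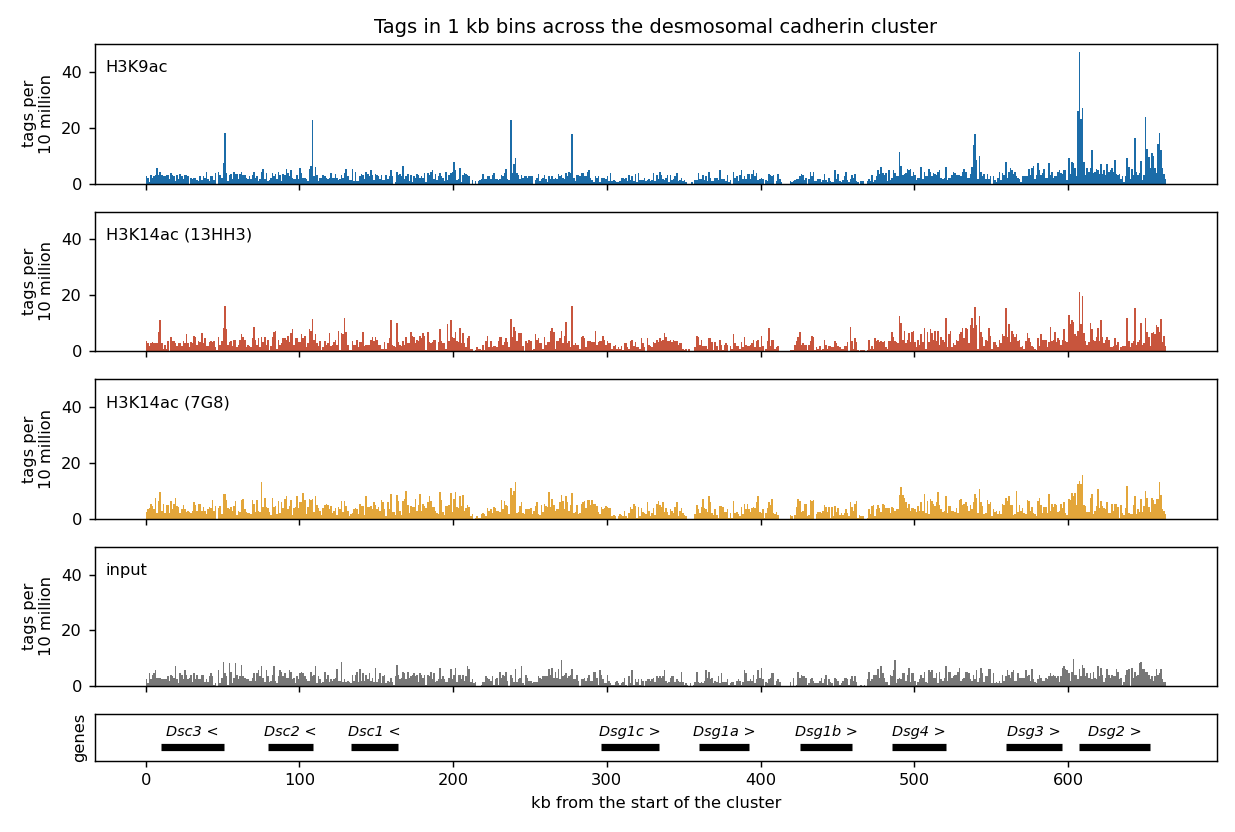
Tags per 10000000 in 1 kb bins (vertical axis) along the cluster, in kb from its start (horizontal axis), in a panel for each of the 4 libraries, with bars at the bottom for 9 genes and arrows for their strands. The highest H3K9ac bin lies at Dsg2 with 109 tags, while no input bin exceeds 19 tags.

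Summed over the cluster, the ratio to input depended on the scale. By library totals H3K9ac had 4943 tags against 4049 of input (log2 0.02, interval -0.04 to 0.08), while 13HH3 stood at 0.28 (0.22 to 0.34) and 7G8 at 0.38 (0.32 to 0.43). By the totals of chromosome 18 the values were -0.02 (-0.08 to 0.04), 0.11 (0.05 to 0.17) and 0.19 (0.13 to 0.24). By the median 10 kb bin they were 0.40 (0.34 to 0.46), 0.37 (0.31 to 0.43) and 0.34 (0.29 to 0.40), so that H3K9ac was then no lower than H3K14ac. In the 597144 bp before the surroundings of the Dsg2 TSS, H3K9ac stood at -0.14 by library totals (-0.21 to -0.07) and turned to 0.24 by the median bin (0.17 to 0.30). There 13HH3 (0.26, interval 0.19 to 0.32) and 7G8 (0.39, interval 0.33 to 0.45) were above input by all 3 scales, with lowest values of 0.08 (0.02 to 0.15) and 0.20 (0.14 to 0.26). In the 132566 bp gap between Dsc1 and Dsg1c H3K9ac likewise turned from -0.17 (-0.31 to -0.03) to 0.20 by the median bin (0.07 to 0.34), and 7G8 lay above input by each scale, at 0.46 (0.33 to 0.58) by library totals. Between Dsg4 and Dsg3 13HH3 reached 0.67 (0.45 to 0.89), and 0.50 (0.28 to 0.72) by chromosome 18.

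Within the gene bodies, counted from 2 kb past the TSS to the gene end, Dsg2 had H3K9ac above input beyond counting error, with 619 tags against 382 (log2 0.43, interval 0.25 to 0.62), as 1 of 7 members. Among all gene bodies of the members' range of lengths (26921 to 44447 bp), 56.4% had such an interval above 0 and 21.6% one below. By the median 10 kb bin 3 of 7 members did, beside 73.7% of those bodies, since Dsg3 (0.50, interval 0.24 to 0.76) and Dsg4 (0.45, interval 0.20 to 0.71) joined Dsg2. In the bodies of Dsc3 and Dsc2 H3K9ac stood at -0.41 (-0.69 to -0.14) and -0.32 (-0.62 to -0.01) by library totals, but at -0.04 (-0.31 to 0.24) and 0.06 (-0.25 to 0.36) by the median bin. The body of Dsg4 had 13HH3 above input, with 383 tags against 232 (0.56, interval 0.32 to 0.80), and 0.39 by chromosome 18 (0.15 to 0.63). It was 1 of 7 members with such an interval, beside 30.1% of the bodies, and by the median 10 kb bin 4 of 7 had one (Dsc2, Dsg2, Dsg3 and Dsg4), beside 39.8% of the bodies. The 7G8 interval lay above 0 in the bodies of 6 of 7 members, beside 15.9% of all bodies of these lengths, with log2 ratios of 0.46 for Dsc1, 0.41 for Dsc2, 0.32 for Dsc3, 0.49 for Dsg1a, 0.31 for Dsg3 and 0.52 for Dsg4. With the totals of chromosome 18 as the scale it did so in 1 of 7, Dsg4 (0.33, interval 0.10 to 0.57), beside 19.7% of such bodies on chromosome 18. By the median 10 kb bin it did so in 6 of 7, where no share over all bodies was counted.

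The members also differ in the CpG content of their promoters, which the choice of genes did not use. Within 500 bp of the TSS Dsg2 has 65 CpG dinucleotides, Dsc3 37 and Dsc2 34. Dsg1a, Dsg3 and Dsg4 have 6 each and Dsc1 has 4. Within 2 kb the 3 members with many CpGs were those with the most H3K9ac tags, and those with few had log2 ratios of H3K9ac to input between -0.69 and 0.16. This depended on the window. In the 2 kb upstream alone Dsg3 had 24 H3K9ac tags (1.00, interval -0.12 to 2.23) and Dsc2 19 (0.28, interval -0.81 to 1.42). Within 500 bp Dsg1a and Dsg3 both stood at 1.32, with intervals that included 0. For 13HH3 the groups overlapped, since Dsg3 with 6 CpGs had a log2 ratio of 1.13 and Dsc3 with 37 had 0.84. With 7 neighbouring genes this is a description only.

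The other genes of the desmosome and its junctional surroundings were counted in the same way. Of 14 genes, 11 were called higher for H3K9ac, where 56.2% of all TSSs were, with a median log2 ratio of 1.42 beside the 1.30 of all TSSs. None was called for 13HH3 or 7G8 over input, where 16.0% and 16.4% of all TSSs were called higher, and the medians were 0.46 and 0.23. Within 1 kb both antibodies did have calls, as counted below with the processing. Among the plaque proteins, Dsp (desmoplakin) had a log2 ratio of H3K9ac to input of 1.99 (1.44 to 2.57), Jup (plakoglobin) 1.96 (1.50 to 2.45), Pkp2 2.00 (1.44 to 2.61) and Pkp3 1.34 (0.94 to 1.77). The partner genes not called were Pkp1 (0.61, interval 0.11 to 1.12), Krt18 (0.68, interval 0.24 to 1.13) and Evpl (0.85, interval 0.42 to 1.30). Cdh1, which encodes E-cadherin, had 1.93 (1.50 to 2.38). The partner genes lie elsewhere in the genome, apart from Cdh2 on the same chromosome, and most have more CpGs at the TSS than the 37 of Dsc3, as with 93 at Dsp and 62 at Jup.

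**Figure D5:**
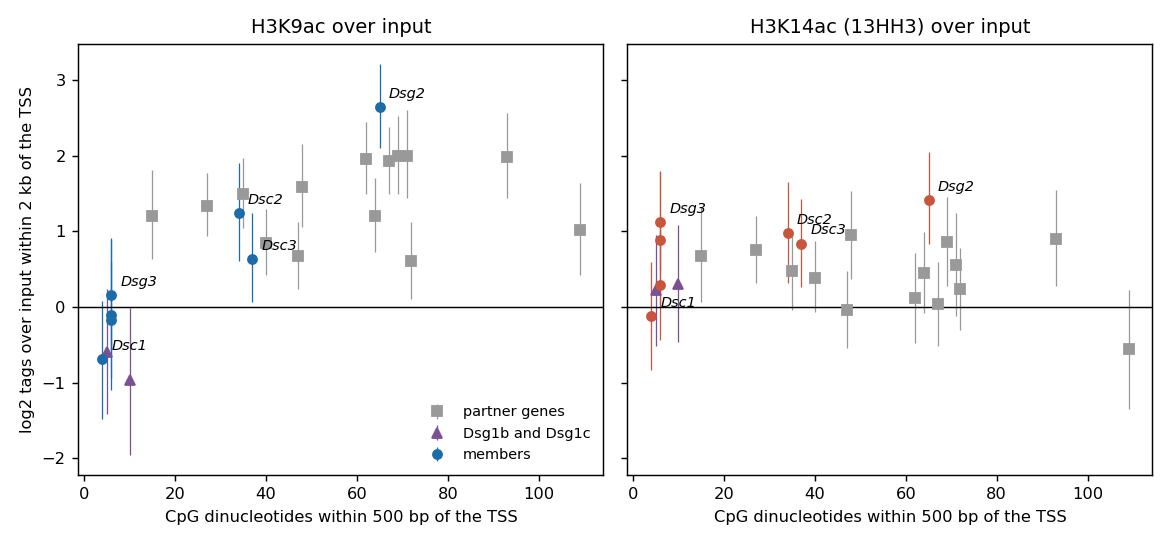
Log2 ratio to input within 2 kb of the TSS (vertical axis, with exact 95% intervals) against the number of CpG dinucleotides within 500 bp of the TSS (horizontal axis) for the 7 members, Dsg1b and Dsg1c, and 14 partner genes, for H3K9ac on the left and 13HH3 on the right. Dsg2 with 65 CpGs has the highest ratio of H3K9ac, at 2.64, and the members with 4 to 6 CpGs lie between -0.69 and 0.16.

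The labelled cell type was checked by its markers. Of 8 embryonic stem cell markers 7 were called higher for H3K9ac, beside 56.2% of all TSSs, with Esrrb as the exception (0.01, interval -0.64 to 0.67). Their median was 2.61, beside the 1.30 of all TSSs. For 13HH3 4 of the 8 were called, beside 16.0% of all TSSs, and for 7G8 3, beside 16.4%. Of 6 markers of stratified epithelium, none was called, and their H3K9ac ratios ran from -0.97 to 0.31, while 1 of 5 fibroblast markers, Col1a1, was called at 1.01 (0.50 to 1.54). Col1a2 (0.88, interval 0.22 to 1.58) and Thy1 (0.82, interval 0.36 to 1.29) lay above input short of 2-fold, while the intervals of Postn and Col3a1 included 0. The part of feeder cells in the results was not tested.

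Over the 3 ratios to input, the genes most like Dsg2 were Plaur, Adnp2 and Bscl2, at Euclidean distances of 0.0518, 0.0717 and 0.0776 on the log2 scale. With these genes included, 1959 other TSSs (9.02%) lay within all 3 intervals of Dsg2. The genes most like Dsc1 were Serpinb1b, Fap and Trim60, at 0.0471, 0.0750 and 0.0764, and 3392 TSSs (15.6%) lay within all 3 intervals of Dsc1. Each distance rests on 3 ratios that share the input library.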

How the data were processed

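ChIP and input DNA of mES cells were sequenced as single-end reads of 36 bases. The authors used ELAND with 1 mismatch allowed to align them to mm9 and deposited a line with position and strand for every tag. The deposited score is 1 on every line, so a line was counted as 1 tag. Repeats of position and strand were absent from 3 files and made up 3.30% of the 13HH3 file, where they were removed. Tags of the autosomes and of X and Y were counted at a point 100 bp past their 5′ end. TSSs were the most 5′ starts of protein-coding transcripts in GENCODE (version M1). Ratios were scaled by library totals, with exact conditional binomial intervals, and densities have exact Poisson intervals. Regions are windows of 400 bp whose tags exceeded the highest of the genome mean and the scaled input in 1, 5 and 10 kb at a probability of 1e-05. MACS was not run. The steps were tested on simulated data. The members and lists were chosen with earlier results of these data known. Named are the members, the Dsg1 copies, genes within 250 kb, 14 partner genes, markers, the 3 nearest genes by ratio and the top 3 bins. The DNA of the cluster is not reported here. Calculations used Python 3.11.15, numpy 2.4.6 and scipy 1.17.1.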

Additional observations from a re-analysis of the deposited data

How the results depend on the processing

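Of 399 recomputed log2 ratios of members, 361 stayed within their own interval, 36 left it and 2 were counted as reversed. Some could not move, so the 361 does not measure robustness. Libraries without repeats are the same with every tag kept, and members with a single start are the same from the most 3′ start. At a TSS only a 2-fold call could count as reversed. Over input 13HH3 at Dsc2 was therefore counted as having left its interval. It went from 0.98 (0.32 to 1.66) to -0.63 (-1.51 to 0.23) from the most 3′ start and -0.06 upstream. The 2 reversed were both H3K9ac at Dsc2. From its most 3′ start it stood at -0.54, which left 1 member higher. In the body it stood at 0.06 with the median 10 kb bin as the scale. With that scale, added for bodies and stretches after the data were seen, H3K9ac also turned before the Dsg2 surroundings (0.24) and between Dsc1 and Dsg1c (0.20), and the whole cluster stood at 0.40 for H3K9ac and 0.37 for 13HH3. With scaling by chromosome 18 the whole cluster stood at 0.11 for 13HH3 and 0.19 for 7G8. For 13HH3 over input, 1 member was higher with no shift, 1 with scaling by chromosome 18, 3 within 1 kb, upstream, with every tag and by the median 10 kb bin, and 5 within 500 bp (a window added after the data were seen). For H3K9ac over input, 3 were higher within 1 kb, within 500 bp and by the median bin. For 7G8 over input, 2 members were higher in the 2 kb upstream of the TSS and 3 within 500 bp. For 13HH3 over H3K9ac, no shift and 500 bp each gave 1 higher member, 2 kb upstream gave 0 lower and 500 bp gave 2 lower. For 7G8 over H3K9ac, 2 were lower within 1 kb, 0 upstream and 2 within 500 bp. For 13HH3 over 7G8, 1 was higher within 500 bp. Within 1 kb, 2 partner genes were higher for 13HH3 and 1 for 7G8. Shares over all TSSs were counted only within 2 kb and by library totals, so these counts have none beside them.

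The share of bins called higher and lower was 2.53% and 2.21% for H3K9ac in bins of 500 bp, and 6.67% were lower in bins of 2 kb. For 13HH3 it was 3.17% higher in bins of 500 bp, 1.21% lower in bins of 2 kb and 1.22% lower with scaling by chromosome 18. For 7G8 it was 2.92% higher and 0.868% lower in bins of 500 bp, 10.0% higher and 0.909% lower in bins of 2 kb, and 3.52% higher with scaling by chromosome 18. At a threshold of 1e-10 there were 2 regions of 13HH3 in the cluster, with 2 members marked, and 1 of 7G8, with 0 members. With the genome mean as the rate there were 26 regions of 7G8. Bins and regions of the whole genome were not counted under these settings. The windows differ in the tags they hold by construction, and other causes were not tested. Members other than Dsg2 had 18 to 82 tags in a window, and no replicate shows the variation between libraries. No paired analysis was possible because each group has 1 library.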

Other observations

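The protein-coding genes within 250 kb past the cluster are Ttr, Gm10269, B4galt6 and Trappc8. B4galt6, a galactosyltransferase, held 222 H3K9ac tags, 111 of 13HH3, 85 of 7G8 and 24 of input, with log2 ratios to input of 2.95 (2.34 to 3.62), 2.05 (1.40 to 2.75) and 1.52 (0.85 to 2.24). Trappc8, a subunit of a trafficking complex, had 206 H3K9ac tags against 34 of input (2.34, interval 1.81 to 2.90). Ttr, which encodes transthyretin and lies next to Dsg2, had 53 H3K9ac tags, 70 of 13HH3, 54 of 7G8 and 38 of input, and its log2 ratio was 0.22 for H3K9ac (-0.41 to 0.86) and 0.72 for 13HH3 (0.13 to 1.33). B4galt6 and Trappc8 have 93 and 96 CpG dinucleotides within 500 bp of the TSS, and Ttr has 12.

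In the Dsc1 intron, the 1 kb bin centred 4344 bp past the TSS held 24 tags of 13HH3 and 21 of 7G8 against 6 of input, beside 11 of H3K9ac. The log2 ratios to input were 1.84 for 13HH3, 1.50 for 7G8 and 0.61 for H3K9ac. The bin was chosen after its values were seen, and no enriched region was called there.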
